A study of Mus musculus with 9 samples.

Results

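The genes described here flank Msr1 on mouse chromosome 8. They are 50 genes chosen by symbol as neighbours of Msr1 within about 35 Mb in the mm10 build out of 17442 genes measured. The rule is one of position, but the list was drawn up with earlier results of these data known. RNA was sequenced from the livers of 9 male C57BL/6 mice, 5 of genotype Msr1-/- and 4 wild type. Both genotypes had been fed a diet high in fat and cholesterol for 16 weeks and carry the disease label NAFLD, non-alcoholic fatty liver disease, so no liver on another diet enters. The labels give no age. They also do not say how the Msr1 allele was made, or whether the wild-type mice were littermates. The study asked what Msr1 does in fatty liver disease, and the comparison here asks how the genes around the mutated locus differ between the genotypes.

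Msr1 encodes a scavenger receptor with which macrophages take up modified lipoproteins. Genes that lie close together on a chromosome are usually inherited together. In mice made by gene targeting in embryonic stem cells, DNA of the stem cells' strain can stay around the targeted gene through many backcrosses, and such a stretch is called a passenger or flanking region. No sequence variant was read here, so whether the livers differ in DNA around Msr1 was not tested.

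Of the 50 genes, 2, Gsr and Tusc3, lie on the centromeric side of Msr1, and the others run from Micu3 to Hapln4 on the telomeric side. Values are read counts divided by the authors' size factor, called normalised counts below. A gene was tested where its mean over the 9 livers was 10 or more, which holds for 45 of the 50. Fold changes and standard errors (SE) are on the log2(value + 1) scale, Msr1-/- over wild type, and that scale understates the change of low genes. A gene is called where limma's Benjamini-Hochberg adjusted p over all tested genes is under 0.05. The p-values measure the spread between animals. Positions are those of mm10 (GENCODE M21).

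RefSeq promoters (GRCm38.p6, 250 bases before to 50 after a start site) were given for 30 of the 50 genes, and for 2 of the 6 that were called, Zfp868 and Hpgd. They are shown because these genes rose in Msr1-/- livers and because the 2 start sites of Zfp868 differ in base composition. Capitals mark matches, on either strand, to TATAAA (the TATA box), CCAAT (the box of that name), GGGCGG (the GC box), TGACG (the first part of the cyclic AMP response element), CACGTG (the E box) and GTTAAT (part of the hepatocyte nuclear factor HNF1 site). Zfp868 is read from the minus strand at chr8:69625499-69625798 for the first start site and chr8:69625126-69625425 for the second, and Hpgd from the plus strand at chr8:56294302-56294601.
Zfp868 start site 1: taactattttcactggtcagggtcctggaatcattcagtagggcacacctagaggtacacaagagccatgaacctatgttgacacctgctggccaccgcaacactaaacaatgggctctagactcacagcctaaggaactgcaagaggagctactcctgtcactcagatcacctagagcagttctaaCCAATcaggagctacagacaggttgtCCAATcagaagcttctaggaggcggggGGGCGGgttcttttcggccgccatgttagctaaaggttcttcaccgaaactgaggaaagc
Zfp868 start site 2: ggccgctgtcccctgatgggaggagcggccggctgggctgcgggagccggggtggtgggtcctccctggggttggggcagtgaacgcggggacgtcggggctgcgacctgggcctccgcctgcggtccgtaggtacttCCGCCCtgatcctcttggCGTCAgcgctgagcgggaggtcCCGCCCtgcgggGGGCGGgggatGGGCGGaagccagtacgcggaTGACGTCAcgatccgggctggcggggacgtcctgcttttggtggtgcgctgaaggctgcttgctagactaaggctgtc
Hpgd: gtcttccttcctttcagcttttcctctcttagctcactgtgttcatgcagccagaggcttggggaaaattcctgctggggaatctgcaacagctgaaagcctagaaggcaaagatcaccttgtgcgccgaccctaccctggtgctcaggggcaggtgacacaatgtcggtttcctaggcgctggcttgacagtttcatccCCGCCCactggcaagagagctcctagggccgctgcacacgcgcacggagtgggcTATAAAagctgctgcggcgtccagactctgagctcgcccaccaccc
The first Zfp868 promoter holds 6 CG dinucleotides and is 50.7% G or C, with 2 CCAAT matches and 1 GC box match. The second holds 29 CG dinucleotides and is 71.3% G or C, with 4 GC box matches and 3 TGACG matches, of which 2 overlap on opposite strands. The Hpgd promoter holds 12 CG dinucleotides and is 58.0% G or C, with 1 TATAAA and 1 GC box match. The median over 32851 promoters of this length was 7 CG dinucleotides. TATAAA was found in 13.6% of them, CCAAT in 37.4%, GGGCGG in 35.7%, TGACG in 20.8%, CACGTG in 7.15% and GTTAAT in 7.10%. None of these 3 promoters held CACGTG or GTTAAT.

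Reads per liver lay between 15006773 and 18238932. Wild type 3 stood apart, with -88.74 on the first principal component, which took 41.0% of the variance, against -8.30 to 27.61 for the other 8 livers, so results are given with and without it where it matters. The hepatocyte markers summed to 1657946 to 2299857 normalised counts in Msr1-/- livers, 1602341 to 1957076 in wild type 1, 2 and 4 and 1279420 in wild type 3, and none of the 6 was called. Kupffer cell markers, 10 genes of the resident liver macrophages, summed to 4733 to 6380 in Msr1-/- livers, 7929 to 10283 in wild type 1, 2 and 4 and 17369 in wild type 3, and 2 of the 10 were called lower, or 5 of the 10 without wild type 3. B and plasma cell markers summed to 165 to 335 in Msr1-/- livers, 681 to 824 in wild type 1, 2 and 4 and 487 in wild type 3, with 1 of 4 called lower, or 3 without wild type 3. Cholangiocyte markers summed to 28.6 to 57.3 in Msr1-/- livers, 66.5 to 99.6 in wild type 1, 2 and 4 and 169 in wild type 3, with 1 of the 2 tested called lower. Neutrophil markers summed to 55.1 to 116 in Msr1-/- livers, 129 to 251 in wild type 1, 2 and 4 and 280.1 in wild type 3, with none of the 3 tested called lower, or 1 without wild type 3. The sums of stellate cell, sinusoidal endothelial, and T and NK cell markers overlapped between the genotypes, and none was called with all 9 livers. The part of these cell marker differences in the results below was not tested, and in whole-liver RNA fewer cells of a type and less RNA per cell cannot be told apart.

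Msr1 itself (chr8:39581685-39642673, minus strand) had 157, 153, 209, 186 and 172 normalised counts in Msr1-/- livers 1 to 5, against 256, 202, 460.5 and 194 in wild-type livers 1 to 4. The genotypes overlapped, because wild type 2 and 4 lay below Msr1-/- liver 3. The difference of mean log2 values was -0.58 (two-sided exact permutation test, p = 0.0476, where 126 splits allow no p below 0.0159), and it was -0.31 without wild type 3 (exact permutation p = 0.107). Gene totals hide the exon each read falls in, so these values do not test for a deleted stretch.

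Of the 45 tested flanking genes, 6 were called, 4 higher and 2 lower in Msr1-/- livers, which is 13.3% against 1.37% of all 12937 tested genes (0.665% higher and 0.703% lower). The 4 that rose were Mtmr7, Hpgd, Ints10 and Zfp868, and the 2 that fell were Fgl1 and Hapln4. In 10 of the 45 no Msr1-/- liver overlapped a wild-type one, 7 higher and 3 lower, which is 22.2% against 7.29% of all tested genes (3.30% higher and 3.99% lower). An unadjusted p under 0.05 was found for 18 of the 45, against 15.3% of all tested genes. The direction was mixed, with 23 positive and 22 negative log2 fold changes and a median of 0.04, against 0.02 over all tested genes. The median absolute log2 fold change was 0.25 against 0.18. Without wild type 3 the number called was 10 of 45 (22.2%), 7 higher and 3 lower, against 4.91% of all 12823 genes then tested (2.59% higher and 2.32% lower). Then 10 genes were higher and 6 lower without overlap, against 7.46% and 6.71% of all tested genes. The 5 flanking genes below the limit for testing, Dctd, Pdlim3, Lzts1, Pdgfrl and Csgalnact1, had at most 14.2 normalised counts in any liver. Among them Lzts1 did not overlap, at 0 to 2.12 in Msr1-/- livers and 2.35 to 4.74 in wild type.

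**Figure D1:**
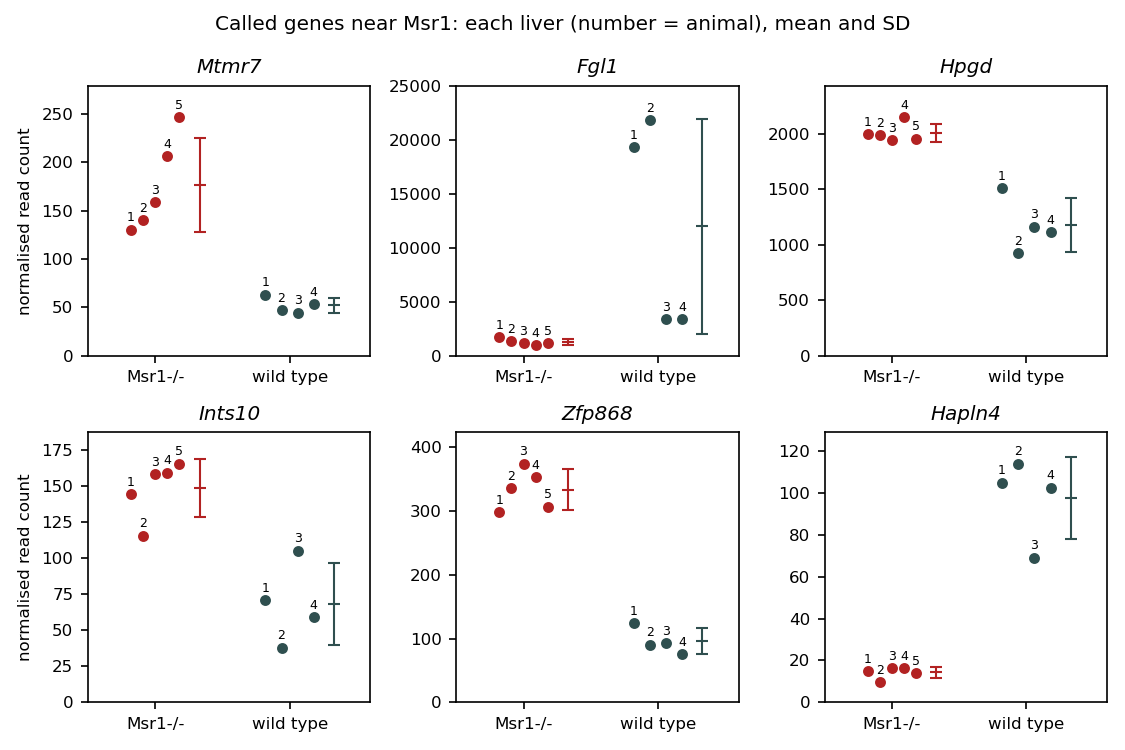
Normalised counts of the 6 called flanking genes in each liver, 1 point per animal, Msr1-/- left of wild type, with a dash and bar at each genotype's mean and SD. Mtmr7, Hpgd, Ints10 and Zfp868 lie higher in all 5 Msr1-/- livers than in all 4 wild-type livers and Fgl1 and Hapln4 lower, and Fgl1 sets wild type 1 and 2 at 19338 and 21861 and wild type 3 and 4 at 3385 and 3394.

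Among genes for RNA, chromatin and DNA proteins, 2 of 14 were called, both higher (14.3%, against 1.37% of all tested genes). Zfp868 (chr8:69610857-69625548, minus strand, 30 Mb from Msr1), a zinc finger protein gene, had 298, 336, 374, 353 and 307 normalised counts in Msr1-/- livers 1 to 5, against 124, 90.7, 93.4 and 75.9 in wild-type livers 1 to 4. All Msr1-/- livers lay far above the highest wild-type liver, wild type 1. Its log2 fold change was 1.80 ± 0.15 (SE, limma adjusted p = 0.000485), and the call held in all 9 fits that leave out 1 liver. Zfp868 shares 5.49% of its 50-base words with other genes, Zfp869 foremost. Zfp869, a zinc finger neighbour, went the other way without being called (84.1 ± 13.9 in Msr1-/- and 119 ± 14.2 in wild type, SD, log2 fold change -0.51 ± 0.16 SE, limma adjusted p = 0.145). Reads in the shared stretches could fall to either gene or be left uncounted, which was not tested.

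Ints10 (chr8:68793929-68831667, plus strand), a subunit of the Integrator complex that cuts nascent RNA, had 144, 115, 158, 159 and 165 normalised counts in Msr1-/- livers 1 to 5, against 70.6, 38.0, 105 and 58.8 in wild-type livers 1 to 4. All Msr1-/- livers lay above all wild-type livers, with wild type 3 nearest to them. Its log2 fold change was 1.19 ± 0.25 (SE, limma adjusted p = 0.0492). The call was lost on leaving out any of the 5 Msr1-/- livers or wild type 1, 2 or 4 (limma adjusted p from 0.0834 to 0.119, log2 fold change from 0.95 to 1.28). Without wild type 3 the log2 fold change was 1.43 (limma adjusted p = 0.00427). The other 12 genes of this role were not called: Cnot7, the catalytic deadenylase of CCR4-NOT, had a log2 fold change of -0.08 ± 0.12 (SE), the interferon regulatory factor gene Irf2 0.14 ± 0.21, the cohesin loader gene Mau2 0.17 ± 0.17 and Gatad2a, of the NuRD chromatin complex, 0.19 ± 0.12. Frg1, Sugp1, Primpol, Ing2, Cdkn2aip, Stox2 and the interferon-induced helicase gene Ddx60 lay between -0.27 (Ddx60) and 0.20 (Stox2).

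Among genes for secreted, matrix and cell surface proteins, 2 of the 4 tested were called, both lower, against 1.37% of all tested genes. Hapln4 (chr8:70083457-70090862, plus strand, 30.4 Mb from Msr1), a link protein that joins hyaluronan and proteoglycans, had 14.8, 9.79, 16.4, 16.4 and 14.0 normalised counts in Msr1-/- livers 1 to 5, against 105, 114, 69.0 and 102 in wild-type livers 1 to 4. No Msr1-/- liver came near the lowest wild-type liver, wild type 3. Its log2 fold change was -2.68 ± 0.23 (SE, limma adjusted p = 0.000485), and the call held in all 9 fits that leave out 1 liver. Tm6sf2, a neighbour 3.39 kb away whose product helps load lipid onto VLDL, had 405 ± 80.3 in Msr1-/- and 299.7 ± 40.1 in wild type (SD), with overlapping genotypes and a log2 fold change of 0.42 ± 0.16 (SE, limma adjusted p = 0.223).

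Fgl1 (chr8:41191434-41215156, minus strand, 1.55 Mb from Msr1) encodes a fibrinogen-like protein that hepatocytes secrete. It had 1726, 1379, 1167, 1017 and 1168 normalised counts in Msr1-/- livers 1 to 5, against 19338, 21861, 3385 and 3394 in wild-type livers 1 to 4. Wild type 1 and 2 were far above wild type 3 and 4, and wild type 3 and 4 still lay above every Msr1-/- liver. The log2 fold change was -2.72 ± 0.55 (SE, limma adjusted p = 0.041). The call was lost without any of the Msr1-/- livers or without wild type 1 or 2 (limma adjusted p from 0.0834 to 0.0991, log2 fold change from -2.83 to -2.25), and without wild type 3 the log2 fold change was -3.15 (limma adjusted p = 0.00598).

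Tenm3, a teneurin adhesion protein, had 172, 146, 136, 129.8 and 109 normalised counts in Msr1-/- livers 1 to 5, against 70.6, 65.4, 149 and 90.1 in wild-type livers 1 to 4. Only wild type 3 reached into the Msr1-/- range. The log2 fold change was 0.62 ± 0.24 (SE, limma adjusted p = 0.233) and 0.87 without that liver (limma adjusted p = 0.0179). Fat1, a giant cadherin, had 321 ± 17.8 in Msr1-/- and 355 ± 145 in wild type (SD), a log2 fold change of -0.07 ± 0.20 (SE, limma adjusted p = 0.923).

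Among lipid, redox and nucleotide enzymes and mitochondrial proteins, 2 of the 8 tested genes were called, both higher, against 1.37% of all tested genes. Mtmr7 (chr8:40551095-40634797, minus strand, 0.908 Mb from Msr1), a myotubularin-related phosphoinositide phosphatase, had 130.4, 139.9, 159, 206 and 246 normalised counts in Msr1-/- livers 1 to 5, against 63.1, 47.5, 44.7 and 53.1 in wild-type livers 1 to 4. All Msr1-/- livers lay above the highest wild-type liver, wild type 1. Its log2 fold change was 1.71 ± 0.21 (SE, limma adjusted p = 0.00702), and the call held in all 9 fits that leave out 1 liver. Mtmr7 overlaps Vps37a on the opposite strand by 40 bases.

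Hpgd (chr8:56294585-56321043, plus strand, 16.7 Mb from Msr1), the dehydrogenase that begins the inactivation of prostaglandins and whose promoter is shown above, had 1999, 1989, 1942, 2150.5 and 1956 normalised counts in Msr1-/- livers 1 to 5, against 1513, 924, 1163 and 1117 in wild-type livers 1 to 4. The Msr1-/- livers were close together and all above wild type 1, the highest wild-type liver. The log2 fold change was 0.79 ± 0.13 (SE, limma adjusted p = 0.0236). The call was lost without any of the Msr1-/- livers or without wild type 2 (limma adjusted p from 0.0517 to 0.0715, log2 fold change from 0.68 to 0.80). The other 6 tested genes of this role were not called, among them Cyp4v3, a fatty acid hydroxylase with the highest mean of the 50 genes per kb of exon (8007 ± 856 in Msr1-/- and 6989 ± 2086 in wild type, SD, log2 fold change 0.25 ± 0.21 SE). The mitochondrial ADP/ATP carrier gene Slc25a4 had a log2 fold change of -0.49 ± 0.23 (SE), Micu3, a regulator of mitochondrial calcium uptake, -0.43 ± 0.31, the glutathione reductase gene Gsr 0.07 ± 0.19 and the carbonyl reductase gene Cbr4 0.10 ± 0.13. Micu3 had 55.1, 41.1, 68.5, 38.6 and 42.1 normalised counts in Msr1-/- livers 1 to 5, against 81.3, 90.7, 31.4 and 75.9 in wild-type livers 1 to 4. Wild type 3 was its lowest liver, and without it the log2 fold change was -0.77 (limma adjusted p = 0.0603).

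None of the 9 tested genes for transport, membrane traffic and glycosylation was called. So few genes cannot be told from the 1.37% called over all tested genes. Tusc3 (chr8:39005845-39165114, plus strand), a subunit of the oligosaccharyltransferase and the nearest tested gene on the centromeric side, had 184, 126, 129, 124 and 138 normalised counts in Msr1-/- livers 1 to 5, against 79.1, 48.5, 188 and 56.0 in wild-type livers 1 to 4. Wild type 1, 2 and 4 lay below every Msr1-/- liver, and wild type 3 above them all. The log2 fold change was 0.79 ± 0.34 (SE, limma adjusted p = 0.292), and 1.20 without wild type 3 (limma adjusted p = 0.00756).

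Zdhhc2, a palmitoyltransferase, had the same layout, with 42.4, 23.5, 23.7, 14.0 and 28.1 normalised counts in Msr1-/- livers 1 to 5, against 7.49, 6.33, 59.6 and 7.59 in wild-type livers 1 to 4. Wild type 3 alone was above the Msr1-/- livers. The log2 fold change was 0.94 ± 0.59 (SE, limma adjusted p = 0.513), and 1.67 without that liver (limma adjusted p = 0.0182). Zdhhc2 overlaps Cnot7 on the opposite strand by 17729 bases, and the labels' protocols state no strand setting for the counting, so reads there cannot be told apart. Vps37a, a subunit of the ESCRT-I sorting complex, was higher without overlap (766.2 to 873.3 in Msr1-/- and 624.5 to 765.6 in wild type, so that the nearest livers all but met) and was not called (log2 fold change 0.24 ± 0.10 SE, limma adjusted p = 0.275). The other tested genes of this role were Galnt7, a transferase of O-linked glycosylation, with a log2 fold change of -0.62 ± 0.26 (SE), Slc7a2, Snx25, Clcn3, Atp13a1 and Ufsp2, between -0.22 (Atp13a1) and 0.07 (Clcn3).

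**Figure D2:**
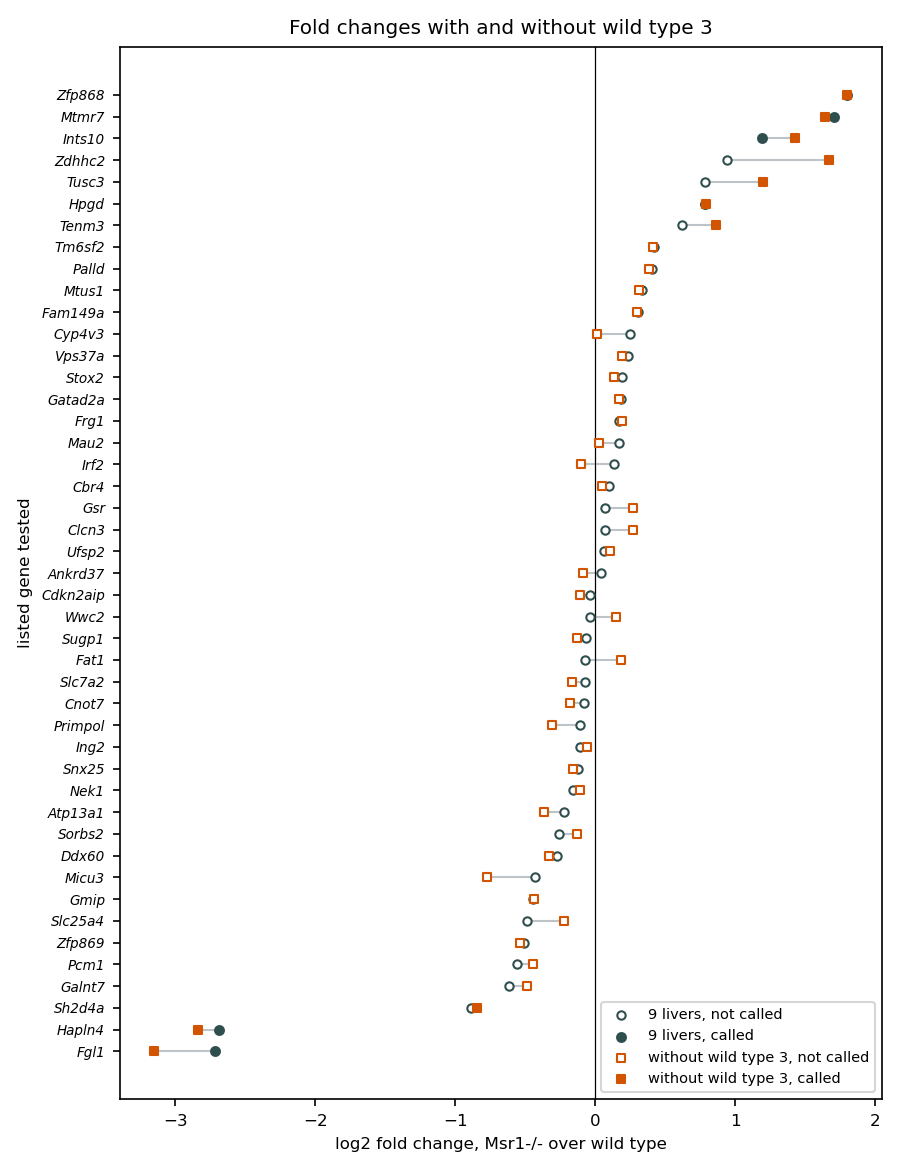
Log2 fold change, Msr1-/- over wild type, of flanking genes with all 9 livers and without wild type 3, joined by a line for each gene. Mtmr7, Zfp868 and Hapln4 hardly move, while Tusc3, Zdhhc2 and Tenm3 stand at 1.20, 1.67 and 0.87 without wild type 3, against 0.79, 0.94 and 0.62 with it.

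None of the 10 tested genes for cytoskeleton, centrosome and signalling was called, though the genotypes did not overlap in 3 of them. Over all tested genes 1.37% were called and 7.29% did not overlap, and so few genes cannot be told from that share called. Mtus1, which binds microtubules, lay at 2198 to 2487 normalised counts in Msr1-/- and 1770.2 to 2046 in wild type (log2 fold change 0.33 ± 0.09 SE, limma adjusted p = 0.112). Fam149a lay at 447 to 525 in Msr1-/- and 356 to 401 in wild type (0.31 ± 0.10 SE, limma adjusted p = 0.156). Sh2d4a, an SH2 domain protein, lay at 29.1 to 51.5 in Msr1-/- and 64.2 to 85.4 in wild type (-0.88 ± 0.20 SE, limma adjusted p = 0.0572), and without wild type 3 it passed (limma adjusted p = 0.0454). The centriolar satellite gene Pcm1 had 155 ± 35.3 in Msr1-/- and 235 ± 83.0 in wild type (SD), a log2 fold change of -0.56 ± 0.25 (SE, limma adjusted p = 0.321). Palladin (Palld), an actin-binding protein, stood at 0.40 ± 0.14 (SE, limma adjusted p = 0.183), and Sorbs2, Nek1, Wwc2, Gmip and Ankrd37 between -0.44 (Gmip) and 0.04 (Ankrd37). Some of these totals may mix genes or miss reads. Ankrd37, Cdkn2aip, Primpol, Mtus1, Cyp4v3, Wwc2 and Slc7a2 share 17.0%, 15.8%, 15.0%, 8.95%, 7.02%, 6.89% and 6.42% of their 50-base words with other genes.

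**Figure D3:**
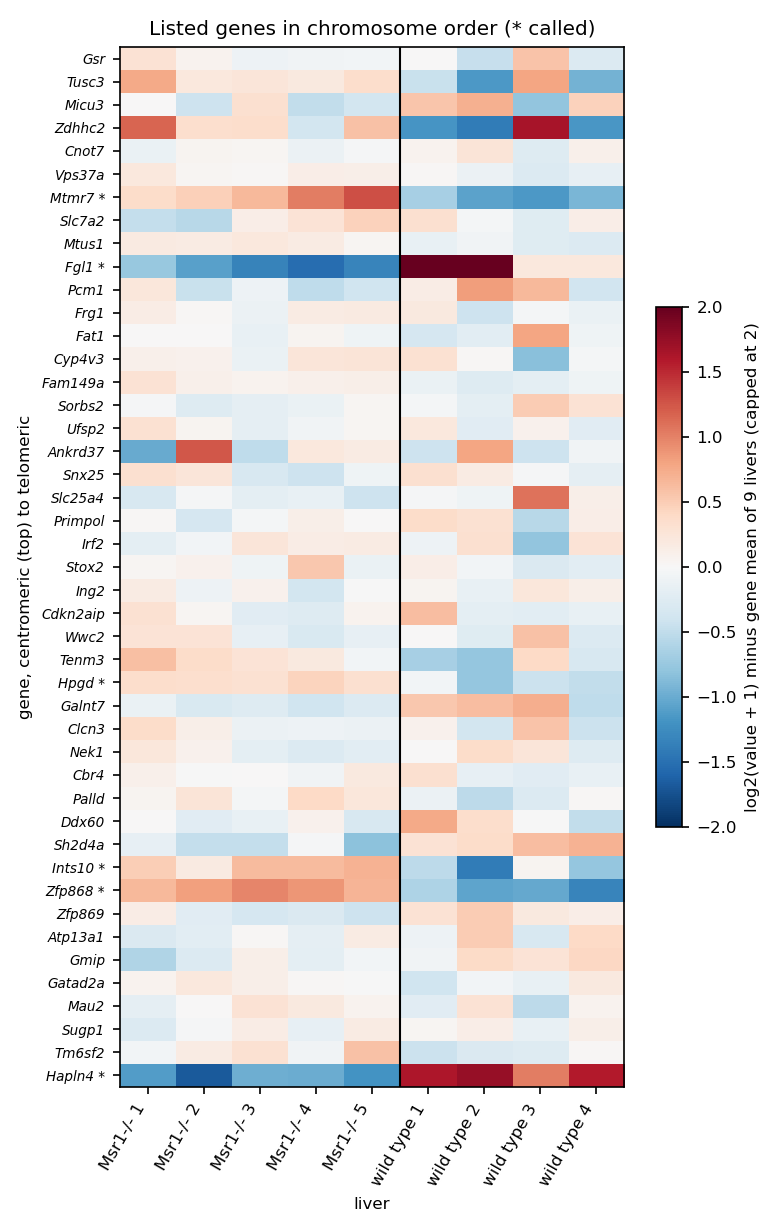
Each tested flanking gene in each liver as the log2 difference from the gene's mean over the 9 livers, genes in chromosome order and Msr1-/- columns left of wild type. Wild type 3 holds the highest or lowest value of the 9 livers in 21 of the 45 genes.

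Single livers set part of the range of these genes. Wild type 3 was the highest or lowest of the 9 livers in 21 of the 45 tested flanking genes (46.7%), against 51.9% of all tested genes, and wild type 2 in 19 (42.2%), against 30.4%. The median coefficient of variation of the flanking genes was 13.4% in Msr1-/- livers, 21.1% in wild type and 17.0% in wild type without wild type 3. Over all tested genes it was 14.8%, 23.6% and 16.8% in these 3 sets of livers.

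Seen along the chromosome, called flanking genes stood among listed neighbours that did not pass. Mtmr7 rose while Cnot7 and Slc7a2, a cationic amino acid transporter with 5236 ± 1578 in Msr1-/- and 5349.9 ± 886 in wild type (SD), had log2 fold changes of -0.08 and -0.07. Of the 2 tested genes adjacent to Mtmr7, Vps37a was higher without overlap and not called (0.24), and Gm5345, not on the list, was called lower (-3.97). Zdhhc2 and Tusc3 nearby were called higher without wild type 3 (1.67 and 1.20). Fgl1 fell, and Mtus1, 57.7 kb away, had a positive log2 fold change of 0.33. The nearer Gm16348, 2.98 kb from Fgl1 and not on the list, was called lower (-4.70). Beside Ints10, which rose, Sh2d4a was lower and not called (-0.88), and Lpl, not on the list, was called lower (-2.08). Beside Zfp868, the unlisted Zfp930 and Zfp964 stood at -0.81 and 0.24 and were not called. Zfp930 was called lower without wild type 3 (limma adjusted p = 0.0355). The nearest 4 tested genes on the centromeric side beyond Tusc3, Lonrf1, 6430573F11Rik, Dlc1 and AI429214, were not called. AI429214 was higher without overlap (18.7 to 31.8 in Msr1-/- and 6.42 to 17.3 in wild type). Its log2 fold change was 1.05 (limma adjusted p = 0.145). 6430573F11Rik overlapped, with a log2 fold change of -1.18 (limma adjusted p = 0.134). Lonrf1 and Dlc1 stood at 0.01 and 0.05. Over all tested genes 7.29% did not overlap. Within 2 Mb on the telomeric side, 2 of the 10 tested flanking genes were called. At 5 to 10 Mb none of 15 was, at 16 to 23 Mb 1 of 7, and at 28 to 31 Mb 3 of 11, against 1.37% of all tested genes. Without wild type 3 these counts were 3, 1, 1 and 4, against 4.91% of all genes then tested.

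The genes of chromosome 8 that were not on the list were looked at in the same way. Of 262 other tested genes within 35 Mb of Msr1, 13 were called (4.96%), 2 higher and 11 lower. Over all tested genes 1.37% were called, 0.665% higher and 0.703% lower. Together with the flanking genes this made 19 of 308 (6.17%), including Msr1 among those tested and not called, while on chromosome 8 beyond 35 Mb 4 of 393 were called (1.02%). Without wild type 3 the shares were 36 of 306 (11.8%) and 16 of 392 (4.08%), against 4.91% of all genes then tested. Leaving out 1 liver other than wild type 3 gave 9 to 16 called in the window, and 36 to 192 over all tested genes. With 10 Mb on each side 5 of 70 were called, and with 20 Mb 7 of 138, against 1.37% of all tested genes.

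**Figure D4:**
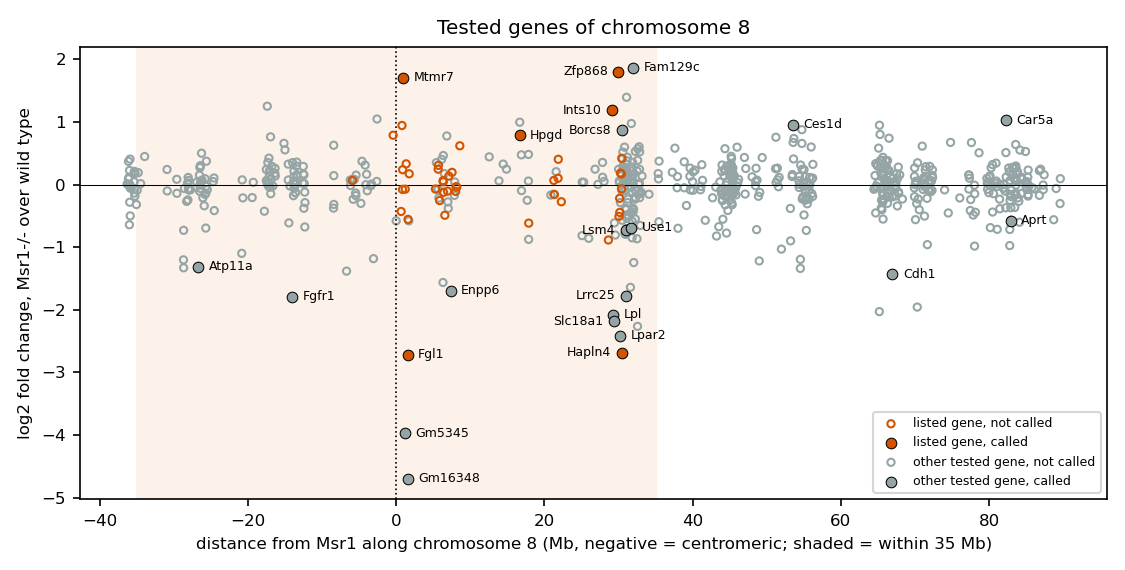
Log2 fold change, Msr1-/- over wild type, of the tested genes of chromosome 8 against the distance from Msr1 in Mb, negative on the centromeric side, with listed genes in orange and called genes filled. On the telomeric side 4 called genes lie within 5 Mb of Msr1, where 13 were tested, and 11 at 20 to 35 Mb, where 121 were tested. Beyond 35 Mb 4 of 393 were called, and the remaining calls lie between these stretches or on the centromeric side.

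On the telomeric side, 4 of 13 tested genes within 5 Mb were called (30.8%), 1 of 29 at 5 to 10 Mb (3.45%), 1 of 13 at 10 to 20 Mb (7.69%) and 11 of 121 at 20 to 35 Mb (9.09%). Among the calls within 5 Mb, Gm5345 and Gm16348 reached the mean of 10 only through the wild-type livers, with Msr1-/- means of 1.31 and 0. On the centromeric side the counts were 0 of 12, 0 of 15, 1 of 55 and 1 of 49. The bins with 12 to 15 genes are thinly filled. Without wild type 3 the telomeric counts were 5 of 13 (38.5%), 4 of 30 (13.3%), 1 of 13 (7.69%) and 20 of 121 (16.5%), and 16 of 369 beyond 35 Mb (4.34%), and the centromeric counts were 1 of 11, 0 of 14, 2 of 55 and 3 of 48. With all 9 livers the share called did not fall evenly with distance. The first and last of the 11 calls of the far telomeric bin were Ints10 at 29.2 Mb and Fam129c at 32.0 Mb. Most of that bin's tested genes also lie between these 2, so this span alone does not show that the calls cluster.

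**Figure D5:**
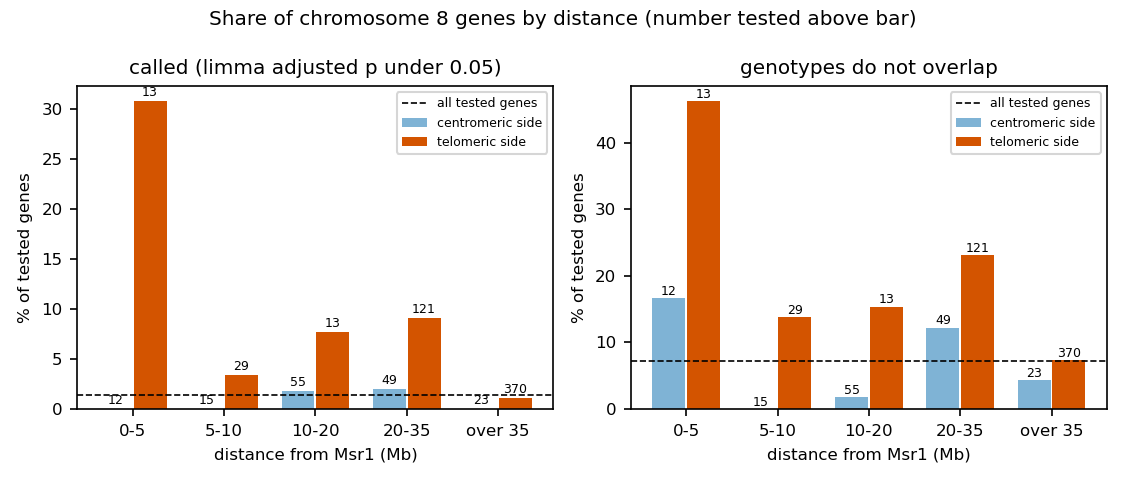
Percentage of tested genes called in bins of distance from Msr1 for each side of the gene, at left, and percentage whose genotypes do not overlap, at right, with the number tested above each bar and the level over all tested genes as a dashed line. The telomeric bins nearest to Msr1 and at 20 to 35 Mb stand at 30.8% and 9.09% called, against 1.37% of all tested genes, and at 46.2% and 23.1% without overlap, against 7.29%.

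Near Msr1, 2 called features with no symbol other than Gm numbers are named here after their values were seen. Gm16348, 2.98 kb from Fgl1, had 0 reads in all 5 Msr1-/- livers, against 12.8, 111, 11.8 and 21.8 normalised counts in wild-type livers 1 to 4. With 3 reads in each Msr1-/- liver as the floor, its mean was at least 12.8-fold lower, and at least 5.03-fold lower without wild type 2, the highest liver. Gm5345, 1.21 Mb from Msr1, had 1.06, 0, 0, 3.51 and 2.004 in Msr1-/- livers 1 to 5, against 34.2, 17.9, 47.9 and 25.6 in wild-type livers 1 to 4, and it shares 11.2% of its 50-base words with other genes, Gapdh foremost. In both, no Msr1-/- liver reached a wild-type one, and every Msr1-/- value lay at or below 3 reads. Enpp6, a choline phosphodiesterase 7.34 Mb away, lay at 13.8 to 19.2 in Msr1-/- and 50.3 to 65.4 in wild type (log2 fold change -1.70 ± 0.20 SE, limma adjusted p = 0.00501).

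At about 30 Mb the called genes that are not on the list stood beside Ints10, Zfp868 and Hapln4. Slc18a1, a vesicular monoamine transporter, had 13.8, 18.6, 12.8, 14.0 and 12.02 normalised counts in Msr1-/- livers 1 to 5, against 67.4, 47.5, 84.7 and 76.8 in wild-type livers 1 to 4 (log2 fold change -2.18 ± 0.23 SE, limma adjusted p = 0.00307). Lpar2, a lysophosphatidic acid receptor, had 3.18, 3.91, 2.74, 3.51 and 4.01 in Msr1-/- livers, against 21.4, 24.3, 26.7 and 19.0 in wild type (limma adjusted p = 0.00755). Neither gene's genotypes overlapped, and both calls held in all 9 fits that leave out 1 liver.

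The lipoprotein lipase gene Lpl lies 48.8 kb from Ints10 and also stands on the list of lipid-associated macrophage markers. Its log2 fold change was -2.08 ± 0.42 (SE, limma adjusted p = 0.041) and -1.53 without wild type 3 (limma adjusted p = 0.00171). That list summed to 794 to 1013 normalised counts in Msr1-/- livers, 1995 to 2319 in wild type 1, 2 and 4 and 7137 in wild type 3, and 2 of its 6 genes, Lpl and Fabp5, were called lower, or 3 without wild type 3. The sums include Lpl itself, at 248 to 382 in Msr1-/- livers, 683 to 1140 in wild type 1, 2 and 4 and 4057 in wild type 3. Lrrc25, a leucine-rich repeat gene of myeloid cells, had 15.8 ± 3.53 in Msr1-/- and 62.3 ± 39.7 in wild type (SD, limma adjusted p = 0.0347). The part of macrophage markers in these 2 genes was not tested.

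Borcs8, a subunit of the BORC complex that positions lysosomes, had 328 ± 32.8 in Msr1-/- and 182 ± 37.4 in wild type (SD, log2 fold change 0.86 ± 0.15 SE, limma adjusted p = 0.0247). Fam129c had 33.3 ± 9.92 in Msr1-/- and 8.51 ± 3.2 in wild type (SD, 1.87 ± 0.34 SE, limma adjusted p = 0.0281), and it shares 19.2% of its 50-base words with other genes, Pgls foremost. These 2 were the ones that rose. Lsm4, an RNA-binding Sm-like protein, and Use1, a SNARE of the endoplasmic reticulum, had log2 fold changes of -0.73 and -0.69 (limma adjusted p = 0.0433 and 0.047).

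On the centromeric side the called genes were Fgfr1, a fibroblast growth factor receptor, and the phospholipid flippase gene Atp11a. Fgfr1, 14 Mb from Msr1, had 42.4, 38.2, 44.7, 64.3 and 57.1 normalised counts in Msr1-/- livers 1 to 5, against 197, 269, 105 and 149 in wild-type livers 1 to 4 (log2 fold change -1.79 ± 0.27 SE, limma adjusted p = 0.012). Atp11a, 26.7 Mb away, had 127 ± 9.75 in Msr1-/- and 344 ± 146 in wild type (SD, -1.31 ± 0.27 SE, limma adjusted p = 0.0433). Of these 13 genes, Fgfr1, Gm5345, Enpp6, Slc18a1 and Lpar2 stayed called in all 9 fits that leave out 1 liver. Gm16348 was called in 8, and without wild type 2, its highest liver, it fell below the mean of 10 and was not tested. The other 7 were lost in 6 to 8 of the 9 fits, and all 7 were called without wild type 3. Each was lost in all or all but 1 of the fits without an Msr1-/- liver (limma adjusted p up to 0.114). Gm16348, Gm5345 and Lpar2 reached the mean of 10 only through the wild-type livers, with Msr1-/- means of 0, 1.31 and 3.47. Fam129c reached it only through the Msr1-/- livers, with a wild-type mean of 8.51.

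Chromosome 8 held the most called genes of any chromosome, 23 of 701 tested (3.28%), with chromosome 3 next at 16 of 658 (2.43%). Genotypes without overlap made up 11.0% of the tested genes of chromosome 8 and 8.36% of those of chromosome 3, against 7.29% over all tested genes. In fixed bins of 10 Mb, 4 of 273 held 5 or more called genes. They were 5 of 42 tested genes at 40 to 50 Mb, 5 of 33 at 60 to 70 Mb and 6 of 107 at 70 to 80 Mb of chromosome 8, and 5 of 116 at 130 to 140 Mb of chromosome 5. The counts over all genes depend on the livers used, since leaving out wild type 3 gave 629 called genes and leaving out any other single liver gave 36 to 192, against 177 with all 9.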

How the data were processed

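The labels' protocols name snap-frozen liver and the TruSeq RNA Library Prep Kit v2. STAR, HTSeq, DESeq2 and the build mm10 come from the submitters' processing notes, without versions. The authors deposited 1 table of signal per gene and liver, read counts divided by a size factor. Every value was a whole multiple of 1 read within 0.01 reads, so whole reads were recovered.

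Genotypes came from the sample titles. Values were taken as log2(value + 1), genes with a mean of 10 or more were tested with limma 3.58.1 in R 4.3.3 (intensity trend, genotype only), and adjusted p under 0.05 was called. The floor of 3 reads covers counting error only. Positions and 50-base words came from GENCODE M21, matched by symbol. Alternatives were other pseudocounts, filters, scalings, array weights, a replicate block, each liver left out, edgeR 4.0.16 and DESeq2 1.42.0. The last 2 used 8 livers, without Msr1-/- 5. A read there was worth 1.0019 normalised counts, too close to 1 for the check that tells reads from normalised values. Its values were whole multiples of that step like those of the other livers. The fit was tested on simulated data.

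The members and lists were chosen with earlier results of these data known. Named are Msr1, listed genes that were called or did not overlap, the 5 tested genes nearest on each side, called genes within 35 Mb except Gm and Rik symbols, and highly expressed listed genes. The role groups and the other genes named in them were chosen after their values were seen.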

Additional observations from a re-analysis of the deposited data

Results flagged for a closer look

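Each of the 50 listed genes and Msr1 was looked at in the 5 Msr1-/- livers and in the 4 wild-type livers for a single value far from the others by Dixon's gap test. This gave 11 of 102 groups, and chance gives about 1 in 20, or 5.1. In Msr1-/- livers, liver 1 stood high for Tusc3 (184 normalised counts, against 124 to 138 in the other 4 Msr1-/- livers), for Fam149a (525, against 447 to 465) and for Zfp869 (108, against 73.1 to 83.2). Liver 4 stood high for Stox2 (24.6, against 15.0 to 17.6) and Hpgd (2150.5, against 1942 to 1999). Liver 5 stood low for Mtus1 (2198, against 2403 to 2487). In wild type, liver 3 stood high for Zdhhc2 (59.6, against 6.33 to 7.59 in the other 3 wild-type livers), Fat1 (570.3, against 260 to 308) and Slc25a4 (238, against 106 to 122). Wild-type liver 1 stood high for Cdkn2aip (245, against 139 to 145) and Cbr4 (764, against 526 to 552).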

How the results depend on the processing

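All genes gave 86 higher and 91 lower calls, the listed genes 4 and 2, and the 35 Mb window 19. Pseudocounts of 0.5 and 5, no filter, TMM and quantile scaling kept these within 1.5 times. Array weights gave 277 higher and 254 lower, with 33 in the window. A mean of 50 or more gave 58 lower, with 10 in the window. The called window genes Gm5345, Gm16348, Enpp6, Slc18a1, Lpar2, Lrrc25 and Fam129c, with means of 12.1 to 38.6, were then not tested. Ints10 and Use1 were tested and lost the call. edgeR on 8 livers gave 26 and 19, 2 and 1 listed, and 8 in the window, and DESeq2 on 8 livers 227 and 312, with 29 in the window. With wild type 3 also left out, edgeR gave 261 and 251, 7 listed higher and 32 in the window, and DESeq2 486 and 414, 8 listed higher and 44 in the window. These 4 count tests were chosen after seeing the data, and edgeR and DESeq2 on all 9 livers were not run. Windows of 10 and 20 Mb held 5 and 7 calls, of fewer genes. Leaving out each liver in turn gave 19 to 332 higher and 17 to 297 lower calls, 2 to 7 and 1 to 3 among the listed genes, 9 to 36 in the window, and -0.72 to -0.31 for Msr1 (exact permutation p from 0.0286 to 0.107). Msr1 under quantile scaling was -0.58 (exact permutation p = 0.0635). Apart from the genes that a filter left untested, the cause of these shifts was not tested.

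Animal numbers pair no samples by the labels, and the deviations of same-numbered livers correlated at 0.025, -0.077, -0.10 and 0.22. With the replicate block 8 genes were called higher and 0 lower, 1 and 0 of them listed (Zfp868), and 1 in the window. Over 537 alternatives of 26 single genes the direction was kept in each, and the side of the threshold in 417. Most of these genes were named because they were called or did not overlap in these same livers. Where genotypes do not overlap, leaving out a liver cannot turn the direction, so the kept direction is no independent test. Of the 6 called listed genes, edgeR on 8 livers kept Mtmr7, Zfp868 and Hapln4. The median log2 fold change of all tested genes was 0.017 with the authors' size factors, 0.022 with TMM and 0.018 with quantile scaling.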
